A study of Mus musculus with 2 samples.

Results

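Chemokines and their receptors were followed in the mammary gland of wild-type mice and of mice carrying a cassette inserted where the microRNAs miR-212 and miR-132 are encoded. The genes were taken by name: every row of the gene tables whose symbol is Ccl, Ccr, Cxcl or Cxcr followed by a digit, or begins with Cx3c, Xcl or Xcr, or is Ccrl2, Ccbp2 or Darc. This gave 58 of the 21113 genes in the table, of which 35 encode ligands and 23 encode receptors. Both samples are mammary gland from the C57BL/6 strain, taken in week 6 after birth, and polyadenylated RNA was sequenced from each. The wild-type group is 1 library, and the other group is 1 library labelled Mir212/132ILN/ILN, in which an IRES-LacZ-Neo (ILN) cassette sits in the locus. It is called ILN/ILN here. The sources used here do not say how many glands or animals went into each library, or their sex. With 1 library per genotype no difference below has a replicate check, and none was tested.

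Chemokines are small secreted proteins that guide migrating cells, chiefly leukocytes, by binding receptors with a bundle of membrane-spanning helices that signal through inhibitory G proteins. The families are named for the spacing of conserved cysteines near the amino end of the ligand: CC, CXC, CX3C and XC. Some members, called homeostatic, are made constantly in lymphoid organs and place B cells, T cells and dendritic cells there, while others are induced by inflammation. Atypical receptors bind chemokines without the usual G protein signal and clear or transport them. In the growing mammary gland, macrophages and eosinophils gather around the advancing ducts, and the fat pad also holds a lymph node.

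The insertion interrupts a locus that gives rise to miR-132-3p (GRCm38.p6, chr11:75173723-75173744, plus strand) and miR-212-3p (chr11:75173443-75173464, plus strand), which are shown because they share 1 seed, the stretch that pairs with target messages. Capitals mark bases 2 to 8 of each mature sequence, taken from RefSeq.
miR-132-3p: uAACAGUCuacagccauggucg
miR-212-3p: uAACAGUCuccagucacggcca
A match to this seed, GACTGTT on the message strand, was searched for in 1 3′ untranslated region per gene, the longest in GENCODE M21 (GRCm38). It was present in 8 of 57 chemokine system genes that had such a region (14%). Among measured genes alone it was present in 4 of 37 of the set (10.8%), against 12.6% of 11193. The regions searched differed in length, with medians of 800 bases in the 37 genes and 1128 bases in the 11193. Sites of 3 measured genes are printed as the message reads, as cDNA letters, with the match in capitals.
Cxcr4: tttttttattGACTGTTgggagtttat
Ccbp2: agaatgaagaGACTGTTtacagacaac
Cxcl12: tgtctgtgcaGACTGTTtcttaggagg
These 3 genes had log2 ratios of -0.84, -0.50 and -0.06 in that order. Ccr9, Cxcl1, Cxcr2 and Xcr1 also held a match and were all under the level counted as measured. A match is a description of letters and does not show that the message is bound.

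Levels are given as the deposited FPKM-like value, a number of fragments scaled for library size and for a length deposited with each gene. That length can be far shorter than the message. For Cxcl12 it was 314 bases, beside a 3′ untranslated region of 5188 bases. Comparisons of level between genes are therefore rough. A gene was counted as measured if 1 library or both gave 1 or more, and 37 of the 58 genes reached it, 25 ligands and 12 receptors. Wherever values stand in pairs, wild type comes first. Log2 ratios compare (value + 1), ILN/ILN over wild type, which understates the difference of low genes. Folds with a range in parentheses are ratios of whole fragments scaled by library size, with an exact conditional 95% interval (Clopper-Pearson). These intervals cover counting error alone and not differences between animals or dissections. The libraries held 46133338 wild-type and 42953129 ILN/ILN fragments, and 3 fragments, the limit that a count of 0 allows, are 0.0618 and 0.0664 per 1000000 of the scaling totals.

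The tissue differed between the libraries in ways that touch these genes. Adipocyte markers had a median log2 ratio of 0.12, with 0 of 12 past 2-fold, and blood endothelial markers one of 0.25. Of 9 measured luminal epithelial markers all 9 were at least 2-fold lower, and the list summed to 47.0 in wild type and 1.11 in ILN/ILN. Krt8, Areg, Cldn7, Elf5 and Foxa1 were listed at 0 in ILN/ILN, from 742, 56, 45, 51 and 100 fragments in wild type. Csn3 was at 0 from only 2 fragments. The basal keratin genes Krt5, Krt14 and Krt17 were also listed at 0, from 78, 62 and 59 fragments in wild type. None of the 5 measured genes of the basal list was past 2-fold, and its muscle actin gene Acta2 was at 56.5 and 43.4. B cell markers summed to 237 and 42.0, with 11 of 11 at least 2-fold lower. T cell markers summed to 193 and 111, of which Thy1 gave 93.1 and 74.5, with 9 of 14 at least 2-fold lower. Neutrophil markers summed to 368 and 78.3, with 7 of 10 at least 2-fold lower and Mmp8 listed at 0. In bulk tissue fewer cells of a type and less RNA per cell cannot be told apart.

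Most chemokine system genes were somewhat lower in the ILN/ILN library, and a few were much lower. Of the 37 measured genes 24 had a log2 ratio below 0 (64.9%), against 47.7% of all 11556 measured genes, and 13 had one above 0, against 52.3%. At least 2-fold lower were 5 genes (13.5%), namely Cxcl13, Cxcr5, Cxcl14, Ccr6 and Ccr7, beside a background of 1.72%. At least 2-fold higher was 1 gene, Ccl20, beside a background of 0.407%, and its value did not rest on fragments (described with the T cell ligands). The median log2 ratio was -0.18 for ligands and -0.42 for receptors, beside 0.02 for all measured genes. At a 1.5-fold threshold 10 genes were lower and 2 higher, beside backgrounds of 5.39% and 1.9%. The genes added on the lower side were Ccl8, Ccl11, Ccl17, Ccl24 and Cxcr4, and the gene added on the higher side was Ccl7.

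**Figure D1:**
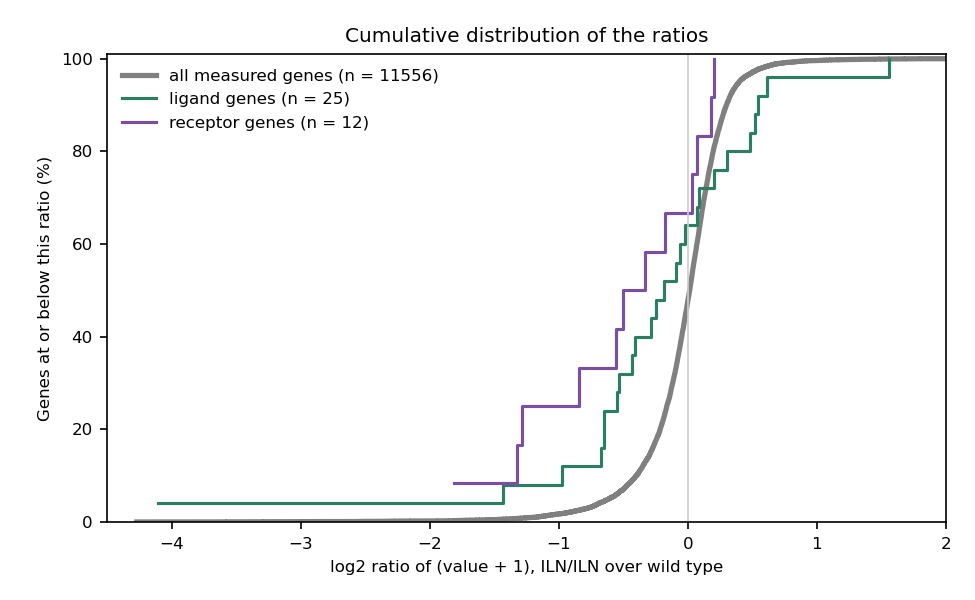
Cumulative share of genes (%) by log2 ratio of (value + 1), ILN/ILN over wild type, for all measured genes (grey, n = 11556), ligand genes (green, n = 25) and receptor genes (purple, n = 12). Above -1.81, its lowest gene, the receptor line lies left of the grey line. The ligand line lies left of the grey line at a log2 ratio of 0 (64% of genes below 0 against 47.7%). At 1.5-fold higher it lies to the right (8% of genes past it against 1.9%). The medians are -0.18 for ligands and -0.42 for receptors, against 0.02.

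Whole fragments allow a look at low genes as well. At least 20 fragments over both libraries were found for 44 of the 58 genes. Of these 44, 8 were at least 2-fold lower in scaled fragments, beside a background of 6.28%, and they were Cxcl13, Cxcr5, Ccr6, Cxcr2, Cxcl14, Ccr7, Ccr9 and Ccr10. Only Ccl28 was at least 2-fold higher, beside a background of 1.65%. The counting interval lay wholly below 1 in 21 genes, beside a background of 28.9%, wholly above 1 in 7, beside a background of 29.3%, and included 1 in the remaining 16. Such intervals are narrow for abundant genes, so the backgrounds are large.

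**Figure D2:**
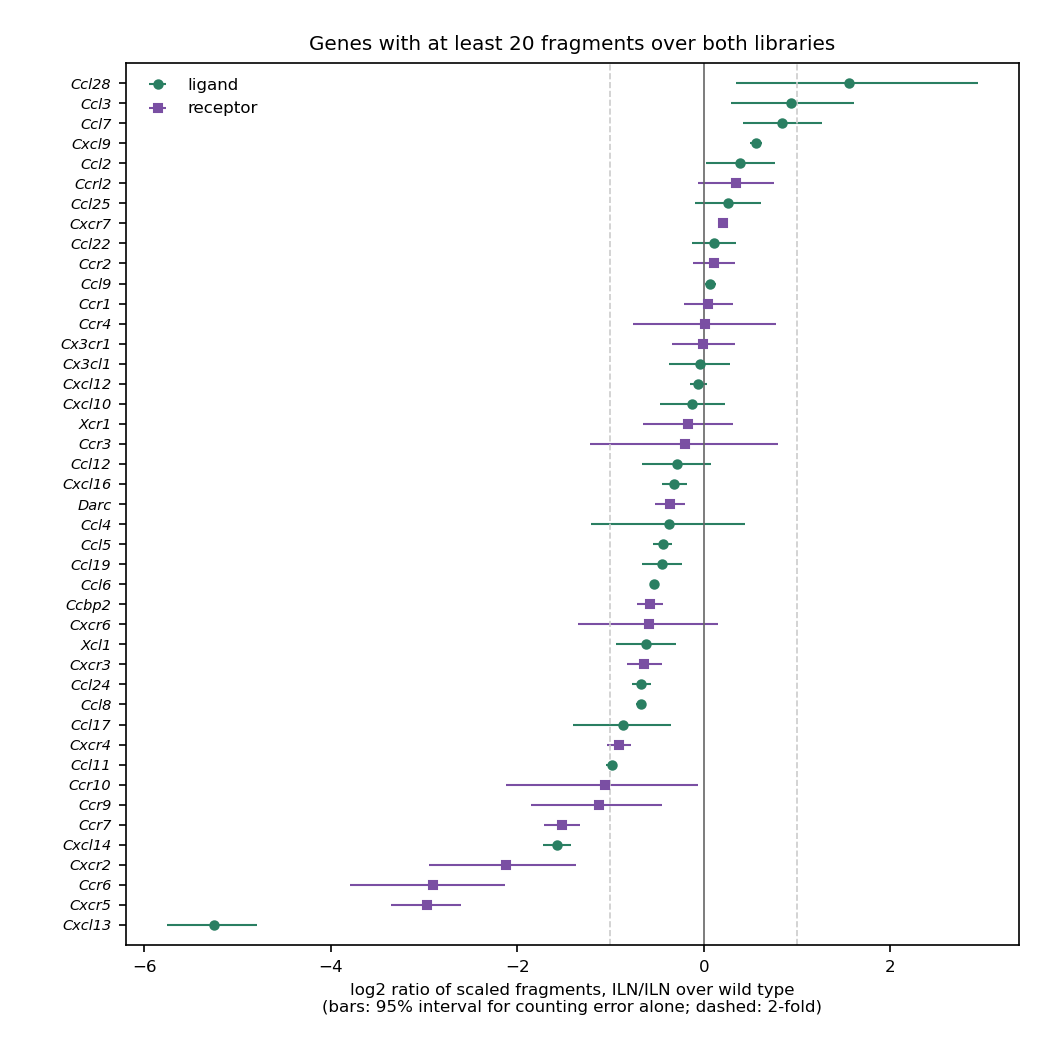
Log2 ratio of scaled fragments, ILN/ILN over wild type, for 43 of the 44 genes with at least 20 fragments over both libraries; circles are ligands, squares receptors, bars the 95% interval for counting error alone, and dashed lines mark 2-fold. Cxcl13 stands furthest to the left (38.2-fold lower), followed by the receptor genes Cxcr5, Ccr6 and Cxcr2.

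A few ligands made up most of the chemokine message. The summed value of the 35 ligand genes was 1241 in wild type and 865 in ILN/ILN. The 5 highest were the same genes in both, Ccl8, Ccl6, Ccl11, Cxcl12 and Ccl5, and held 82.6% and 80.2% of the sum. Ccl8 alone, a CC chemokine of the monocyte chemoattractant group, held 33.2% and 29.9%. Ccl6, a CC chemokine of myeloid cells, held 22.5% and 22.2%. Ccl11, at 134, and Cxcl12, at 128, held places 3 and 4 in wild type and exchanged them in ILN/ILN, at 67.5 and 123. Places and shares depend on the estimate used. An isoform-derived estimate for Cxcl12 was 65.8 in wild type, below Ccl5 at 72.5.

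**Figure D3:**
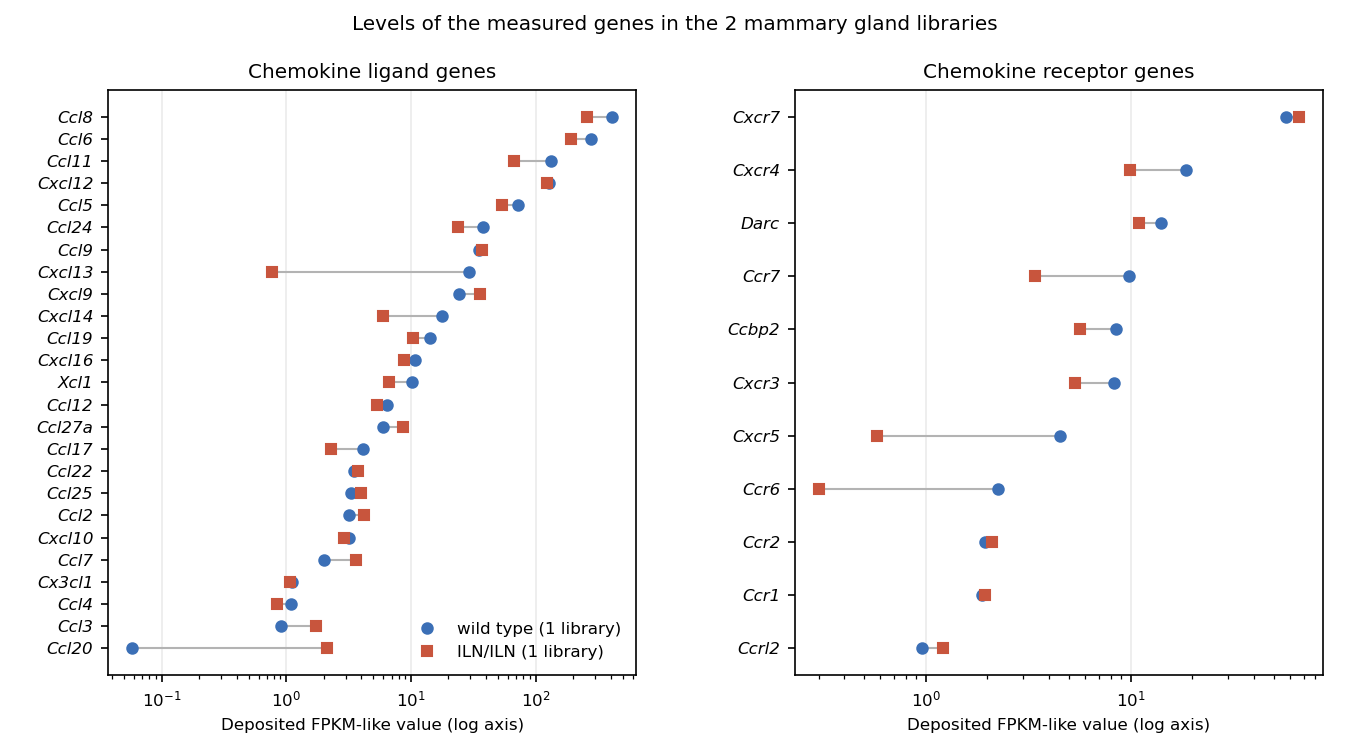
Deposited FPKM-like values (log axis) of the 25 measured ligand genes (left) and 11 of the 12 measured receptor genes (right), with circles for the wild-type and squares for the ILN/ILN library, 1 library each. Ligands run from Ccl8 at 412 and 258 down to Ccl20, and the widest gaps are those of Cxcl13, Cxcr5, Ccr6 and Ccl20.

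Among the homeostatic ligands of lymphoid tissue, 1 gene was far lower while the others were within 1.5-fold. Cxcl13, which draws B cells into follicles, was at 29.5 and 0.773. Its 1560 and 38 fragments made it 38.2-fold lower (27.7 to 54.2), and it moved from place 8 to place 25 among the ligands. Ccl19, which draws T cells and dendritic cells through Ccr7, was at 14.2 and 10.4, with 444 and 304 fragments, 1.36-fold lower (1.17 to 1.58). Ccl19 has close copies in the mouse genome with which reads could be shared. Cxcl12, which retains many cell types through Cxcr4, was at 128 and 123, 1.04-fold lower (0.976 to 1.11) from 1948 and 1741 fragments. Cxcl12 has 3 isoforms in the table, and an isoform-derived estimate that the authors also deposited was 65.8 and 80.2, the other direction. Ccl21 genes, the other ligands of Ccr7, were looked for, but none was found in the gene table under that name, so they were not analysed here.

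Beside Cxcl13, the list of lymph node stroma and high endothelium without chemokine genes had 3 of 7 measured genes at least 2-fold lower. Its summed values were 247 and 151, and Chst4 was listed at 0 in the ILN/ILN library. The 3 genes were Glycam1, Ltb and Fcer2a. Fcer2a is also on the list of B cell markers and Ltb on that of lymphotoxin genes, so the list is not of stroma and high endothelium alone. In scaled fragments 9 of its genes, with at least 20 fragments and not at 0, were 1.02-fold (Il7) to 29.4-fold lower (Glycam1). Their median was 3.44. Glycam1, a mucin of high endothelial venules and of milk, was at 53.2 and 1.81. Ltb, which encodes the lymphotoxin beta chain needed for Cxcl13 expression in follicles, was at 28.2 and 8.02, 3.51-fold lower (3.13 to 3.94). Ltbr, which encodes its receptor, was at 44.8 and 47.7 and was picked with its values known. Mfge8, also on this list, was at 147 and 137. Markers of lymph node sinus macrophages had 4 of 5 genes at least 2-fold lower, summing to 115 and 34.8. The part of these markers in the Cxcl13 difference was not tested.

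The promoter of Cxcl13 is shown because this gene had the largest difference of the set, and that of Cxcl9 because it is a ligand with a clearly higher value in ILN/ILN. Each is the 250 bases before the annotated start (RefSeq, GRCm38.p6), at chr5:95956689-95956938 on the plus strand for Cxcl13 and at chr5:92328080-92328329 on the minus strand for Cxcl9. Capitals mark matches to GGG and CC with any 5 bases between them, a loose form of the NF-kB site, or to the TATA box letters TATAAA.
Cxcl13: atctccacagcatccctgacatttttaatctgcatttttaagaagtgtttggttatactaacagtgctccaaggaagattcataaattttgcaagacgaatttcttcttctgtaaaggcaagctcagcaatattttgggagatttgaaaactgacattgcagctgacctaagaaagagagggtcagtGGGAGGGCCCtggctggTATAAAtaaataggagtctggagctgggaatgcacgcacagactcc
Cxcl9: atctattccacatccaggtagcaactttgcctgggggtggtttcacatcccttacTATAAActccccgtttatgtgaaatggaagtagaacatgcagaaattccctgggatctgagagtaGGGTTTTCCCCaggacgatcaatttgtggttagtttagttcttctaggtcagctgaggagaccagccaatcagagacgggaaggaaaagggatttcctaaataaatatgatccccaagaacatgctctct
Both windows hold a match of each kind, and in Cxcl9 overlapping matches share the marked run. Promoters were at hand for 43 of the 58 genes, in 49 windows, and both strands were searched. The NF-kB letters were in 55.1% of these windows against 45.8% of all 32851 promoters, and TATAAA was in 26.5% against 12.4%. The interferon-type letters, GAAA repeated after any 2 bases, were in 3 of the windows (6.12% against 2.98%), those of Ccl19, Cxcl10 and Cxcl14. TTCNNNGAA, the core of a STAT site, was in 4 (8.16% against 7.02%).

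Of the interferon-induced ligands, Cxcl9 was higher, Cxcl10 was near equal and Cxcl11 was not detected. Cxcl9, which attracts activated T cells through Cxcr3, was at 24.3 and 35.9. It was 1.48-fold higher (1.41 to 1.54), with 3343 and 4591 fragments. Cxcl10, which binds the same receptor, was at 3.17 and 2.91, with an interval that included 1 (0.721 to 1.17). Cxcl10 overlaps Art3 in the reference annotation. Cxcl11 was listed at 0 in both libraries, and RefSeq lists it as a transcribed pseudogene in this strain. Of 7 other measured genes of the interferon gamma pathway none was past 2-fold, and 3 had a log2 ratio above 0. Gbp2, an interferon-induced GTPase, was at 30.6 and 40.2, and Jak1, a kinase of the receptor, at 37.6 and 31.0.

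Ligands for monocytes and eosinophils were mostly lower, and the abundant ones more evenly so. Ccl8 was at 412 and 258, 1.60-fold lower (1.54 to 1.65). Ccl11, the eotaxin that attracts eosinophils and has been linked to ductal branching, was at 134 and 67.5, 1.98-fold lower (1.90 to 2.07). Ccl24, a second eotaxin, was at 37.9 and 23.8, 1.59-fold lower (1.48 to 1.70). Ccl12, a mouse monocyte chemoattractant, had 146 and 111 fragments, with an interval that included 1. Ccl2 and Ccl7, which mobilise monocytes through Ccr2, differed in the other direction. Ccl2 was at 3.21 and 4.20, 1.31-fold higher (1.02 to 1.69), and Ccl7 at 2.03 and 3.63, 1.79-fold higher (1.34 to 2.40). Ccl26 was listed at 0 in both libraries.

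The macrophage inflammatory group was mixed as well. Ccl6 was at 279 and 192, with 18436 and 11834 fragments, 1.45-fold lower (1.42 to 1.48). Ccl9, its close relative, was at 35.3 and 37.1, a ratio of 1.05 (1.01 to 1.09). Ccl5, made by T cells and NK cells and attracting several leukocytes, was at 72.5 and 53.4, 1.36-fold lower (1.26 to 1.46). Ccl3 and Ccl4, inflammatory ligands that overlap each other in the annotation, were low. Ccl3 had 32 and 57 fragments, 1.91-fold higher (1.22 to 3.05), and Ccl4 had 32 and 23, with an interval that included 1.

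Markers of macrophages and dendritic cells had a median log2 ratio of -0.33, with summed values of 3062 and 2200. In scaled fragments their folds ran from 0.533 (Zbtb46, higher) to 1.82-fold lower (C1qc), with a median of 1.27. The folds of Ccl6, Ccl8 and Ccl24 lie inside this range and that of Ccl11 above it. Lyz2, at 990 and 836, and C1qb, at 718 and 468, were the most abundant of these markers. The part of these cells in the ligand differences was not tested.

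Ligands that attract T cells through Ccr4 and dendritic cell products differed from each other. Ccl17 was at 4.15 and 2.28, 1.82-fold lower (1.27 to 2.64). Ccl22, which binds the same receptor, was at 3.49 and 3.78, with 295 and 297 fragments and an interval that included 1. Ccl1, a ligand of Ccr8, had 9 and 8 fragments.

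Ccl20 shows how the deposited value can move without the fragments. It was at 0.0580 and 2.12, a log2 ratio of 1.56, yet it had 2 and 3 fragments. The authors' value is the larger of an original and an isoform-derived estimate, and for Ccl20, which has 2 isoforms in the table, the derived estimate was 0 and 2.12. From fragments the ratio was 1.61 with an interval from 0.185 to 19.3, so no difference was detectable at this depth. Ccl27a was the other measured gene whose value did not rest on fragments. It was at 5.94 and 8.71, its length was below the authors' limit, it overlaps Il11ra1 and it has near-identical copies, so its level is uncertain.

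Chemokines made by epithelia covered a wide range of levels and ratios. Ccl28, a mucosal and milk gland chemokine that draws antibody-secreting cells through Ccr10, had 8 and 22 fragments, 2.95-fold higher (1.27 to 7.68). Its values of 0.0450 and 0.132 lie well under the level counted as measured. Ccl25, the ligand of Ccr9, was at 3.31 and 3.97, with an interval that included 1. Ccl25 has 2 isoforms, and its isoform-derived estimate, 0.324 and 0.914, was under the level counted as measured. Cxcl14, made by epithelia and fibroblasts, was at 17.9 and 6.00, with 1538 and 481 fragments, 2.98-fold lower (2.68 to 3.30). Cxcl17, a mucosal chemokine, had 10 and 0 fragments, with an interval wholly below 1. Luminal epithelial markers were also lower. In scaled fragments 7 of them were 2.59-fold (Prlr) to 271-fold lower (Krt18), with a median of 34.2. The Krt18 fold rests on 583 and 2 fragments, with an interval of 74.8 to 2245. Left out of that median were Krt8, Areg, Cldn7, Elf5 and Foxa1, at 0 in the ILN/ILN library, and Csn3, at 0 from 2 fragments. Fibroblast markers ranged from 0.874 to 1.41-fold lower. The part of either cell type in the Cxcl14 difference was not tested.

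The remaining ligands differed less. Xcl1, made by NK and CD8 T cells, was at 10.3 and 6.72, 1.53-fold lower (1.23 to 1.92), beside NK cell markers with a median log2 ratio of -0.34 and sums of 27.9 and 23.6. From fragments the median of 6 NK markers was 1.99-fold lower. Cxcl16, a membrane-bound ligand that overlaps Zmynd15, was at 10.9 and 8.73, 1.24-fold lower (1.13 to 1.37). Cx3cl1, the membrane-bound fractalkine, was at 1.11 and 1.08, with an interval that included 1. The neutrophil-attracting ligands Cxcl1, Cxcl2, Cxcl3, Cxcl5 and Cxcl15 were all but absent from both libraries. Cxcl1 had 7 and 10 fragments, Cxcl2 had 0 and 3, Cxcl5 had 0 and 1, Cxcl15 had 1 and 0, and Cxcl3 was listed at 0 in both.

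The 5 measured receptor genes of lymphocytes were all lower, with a median log2 ratio of -1.29, and 3 of the 5 were past 2-fold. Cxcr5, the receptor for Cxcl13 on B cells, was at 4.53 and 0.579. It had 564 and 67 fragments and was 7.83-fold lower (6.07 to 10.3). Cxcr5 overlaps Bcl9l in the annotation, and the sources used here do not say whether counting was by strand. Ccr6, found on B cells and some T cells, was at 2.26 and 0.30, 7.51-fold lower (4.38 to 13.8) from 121 and 15 fragments. Ccr6 has 7 isoforms, and its isoform-derived estimate, 0.356 and 0.0549, was under the level counted as measured. Ccr7, which brings T cells and dendritic cells into lymph nodes, was at 9.80 and 3.42, 2.86-fold lower (2.51 to 3.28).

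Cxcr4 and Cxcr3 were lower by smaller amounts. Cxcr4, the widely expressed receptor for Cxcl12, was at 18.6 and 9.93, 1.88-fold lower (1.72 to 2.05). Cxcr3, on activated T cells and NK cells, was at 8.34 and 5.37, 1.55-fold lower (1.36 to 1.77). The other 5 receptors of the group were under the level counted as measured. Ccr9, on gut-homing T cells, had 61 and 26 fragments, 2.18-fold lower (1.36 to 3.60). Ccr10 had 29 and 13, 2.08-fold lower (1.05 to 4.35), and overlaps Cntnap1. Cxcr6, which overlaps Fyco1, had 42 and 26, Ccr4 had 32 and 30 and Ccr8 had 10 and 5, each with an interval that included 1.

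The sizes can be set beside the lymphocyte markers. In scaled fragments the 12 B cell markers were 3.47-fold (Cd79b) to 11.8-fold lower (Pax5), with a median of 6.47, and Cxcr5 and Ccr6 lie inside that range. The 15 T cell markers were 1.14-fold (Cd28) to 5.65-fold lower (Lef1), with a median of 2.65. Ccr7, Cxcr3 and Cxcr4 lie inside that range. Cxcr3, at 1.55-fold, does so only through Cd28, with 27 and 22 fragments, and Thy1, at 1.25-fold. Every other T cell marker was at least 1.82-fold lower (Cd3d). Cd79a was at 80.6 and 9.89, and Cd3g had 511 and 193 fragments. Cxcl13, at 38.2-fold, lies above every B and T cell marker listed. On the lymph node lists the largest folds, of genes not at 0, were those of Glycam1, 29.4 (21.9 to 40.5), and Marco, 19.9 (17.1 to 23.3). The Cxcl13 interval, 27.7 to 54.2, overlaps that of Glycam1 and not that of Marco. The part of lymphocyte number in the receptor differences was not tested.

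**Figure D4:**
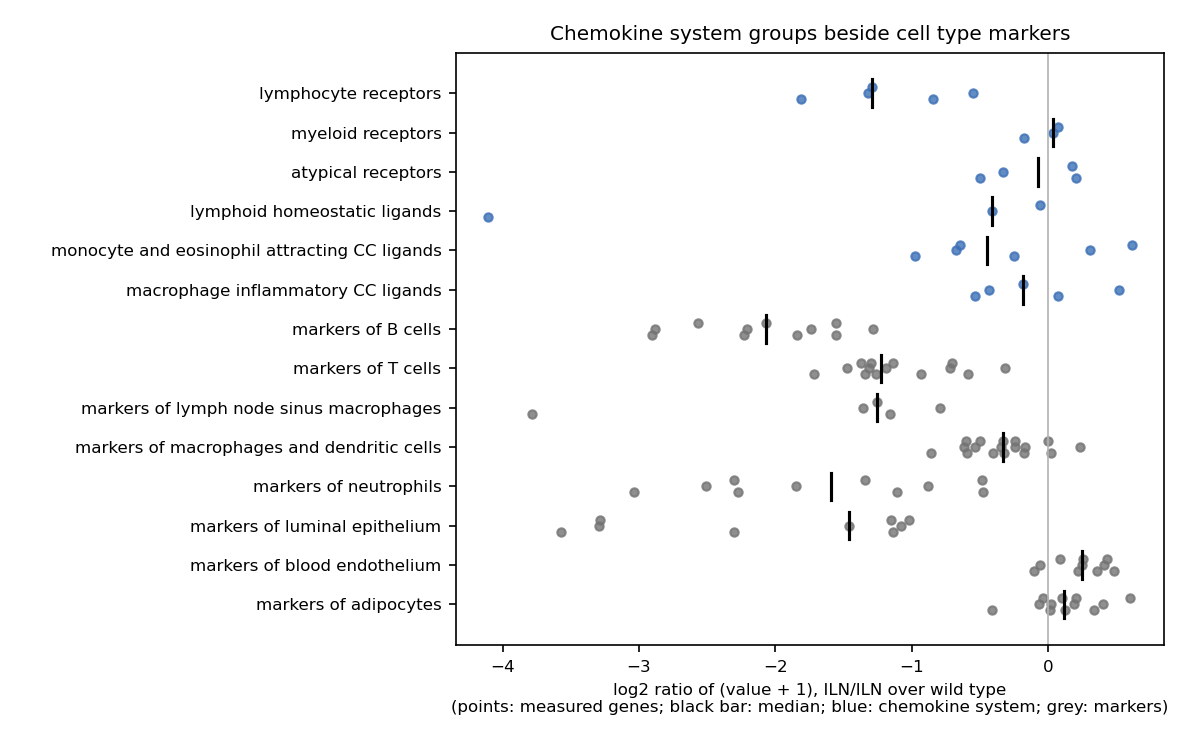
Measured genes (points) by their log2 ratio of (value + 1), as ILN/ILN to wild type, and their median (black bar) for 6 groups of chemokine system genes (blue) and 8 lists of cell type markers without chemokine genes (grey). Lymphocyte receptors (median -1.29) lie near the T cell markers (-1.23), while myeloid receptors (0.03, from 3 measured genes of 9) lie near 0. Cxcr2, 4.34-fold lower in scaled fragments, was under the level counted as measured and is not drawn.

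The myeloid receptor genes Ccr2 and Ccr1 had ratios near 1. Ccr2, which draws monocytes out of the marrow, was at 1.95 and 2.11, and Ccr1 was at 1.88 and 1.94. Both had intervals that included 1. Cx3cr1, the fractalkine receptor of monocytes and resident macrophages, had 155 and 144 fragments, a ratio of 0.998 (0.790 to 1.26). Xcr1, a marker of cross-presenting dendritic cells, had 82 and 68, again with an interval that included 1. Cxcr2, the main chemokine receptor of neutrophils, was the exception, with 84 and 18 fragments, 4.34-fold lower (2.59 to 7.68). Neutrophil markers above 0 in both libraries were 1.5-fold to 26.6-fold lower, with a median of 4.52. The upper end is Ltf, which is also on the list of luminal epithelial markers. The part of neutrophils in the Cxcr2 difference was not tested. Cxcr1 had 0 and 4 fragments, with an interval that included 1, and Ccr1l1 had 0 and 6.

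Ccr3, the eotaxin receptor of eosinophils, was close to the limit of detection in both libraries. It had 21 and 17 fragments, a ratio of 0.870 (0.431 to 1.73). The eosinophil genes Prg2, Siglec5, Il5ra and Epx, picked with their values known, had ratios further from 1 than the list of eosinophil and mast cell markers they come from. That list had a median of 1.35-fold lower in scaled fragments, with 1 of 6 measured genes past 2-fold on the (value + 1) scale, and its mast cell genes Kit and Mcpt4 were 1.03-fold and 1.27-fold lower. Prg2 had 111 and 23 fragments, 4.49-fold lower (2.85 to 7.38), and Siglec5 had 112 and 17, 6.13-fold lower (3.66 to 10.9). Il5ra, the interleukin-5 receptor, had 38 and 5, 7.07-fold lower (2.78 to 23.0). Epx, eosinophil peroxidase, had 18 and 3, 5.58-fold lower (1.63 to 29.6). The interval of Ccr3 overlaps that of Epx and lies apart from those of the other 3 genes. Ccl11 and Ccl24, the ligands, were lower by 1.98-fold and 1.59-fold.

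Atypical receptors held most of the receptor message. Cxcr7, which clears Cxcl12, was the highest receptor gene in both libraries, at 57.7 and 66.5, 1.15-fold higher (1.12 to 1.19). It held 43.2% of the summed receptor value in wild type and 59.5% in ILN/ILN. That sum was 133 and 112, and without Cxcr7 it was 75.8 and 45.3. Darc, which binds chemokines on red cells and venules and overlaps Cadm3, was at 14.2 and 11.0, 1.28-fold lower (1.15 to 1.43). Ccbp2, which scavenges inflammatory CC chemokines on lymphatic vessels, was at 8.47 and 5.68, 1.49-fold lower (1.36 to 1.64). Lymphatic endothelial markers had a median of 1.47-fold lower beside it, and Lyve1 was at 58.2 and 48.0. Their folds were spread from 0.779 (Pdpn, higher) to 4.21-fold lower (Stab2). The part of lymphatic vessels in the Ccbp2 difference was not tested. Ccrl2, which binds the attractant chemerin, was at 0.961 and 1.22, with an interval that included 1.

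Ligands and receptors that bind each other can be set side by side. Cxcl13 and Cxcr5 were both lower, by 38.2-fold and 7.83-fold, and their counting intervals do not overlap. Ccl19 was 1.36-fold lower and Ccr7 2.86-fold lower. Cxcl12 was close to equal while Cxcr4 was 1.88-fold lower and Cxcr7 1.15-fold higher. Cxcl9 was 1.48-fold higher and its receptor Cxcr3 1.55-fold lower. Ccl2 and Ccl7 were 1.31-fold and 1.79-fold higher, while Ccr2 was near equal. Cx3cl1 and Cx3cr1, like Ccl22 and Ccr4, each had intervals that included 1.

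Many of these genes lie side by side in the genome, and neighbours differed in different ways. Of 57 protein-coding genes of the set in the RefSeq annotation (GRCm38.p6), 31 lie in 8 runs with no other protein-coding gene between them. A run of 6 on chromosome 11 holds Ccl2, Ccl7, Ccl11, Ccl12, Ccl8 and Ccl1 in that order. Its first pair had log2 ratios of 0.31 and 0.61, and Ccl11, Ccl12 and Ccl8 had ratios of -0.98, -0.25 and -0.67. A run of 5 on the same chromosome holds Ccl5, Ccl9, Ccl6, Ccl3 and Ccl4, with ratios of -0.43, 0.07, -0.53, 0.52 and -0.18. The microRNA locus is also on chromosome 11. On chromosome 9 the receptor genes Cxcr6, Xcr1, Ccr1, Ccr1l1, Ccr3 and Ccr2 follow each other, and their intervals include 1 in every case but Ccr1l1, with 0 and 6 fragments. On chromosome 8, Ccl22 and Ccl17 flank Cx3cl1, with ratios of 0.09, -0.65 and -0.02.

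Genes that act downstream of chemokine receptors were mostly slightly lower. Of 35 measured signalling genes 2 were at least 2-fold lower, none was 2-fold higher, 26 had a log2 ratio below 0, and the median was -0.33, beside 0.02 for all genes. Rac2, a GTPase of blood cells, was at 57.5 and 24.3, 2.36-fold lower (2.27 to 2.46), and Coro1a, an actin regulator of leukocytes, was at 79.5 and 37.3, 2.13-fold lower (2.03 to 2.23). Fermt3, the integrin activator of blood cells, was at 20.3 and 11.8. The widely expressed relative Rac1 was at 90.2 and 98.7, and Gnai2, the main inhibitory G protein alpha chain of leukocytes, at 211 and 192, a pair picked with their values known. Of 12 measured genes of the lymphotoxin and non-canonical NF-kB list only Ltb was past 2-fold on the scale of (value + 1), and the median was -0.19. Lta had 96 and 26 fragments, 3.44-fold lower (2.21 to 5.52), and Tnfsf14 was at 1.33 and 0.854.

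Family genes that the naming rule leaves out were all within 2-fold. None of 7 was past 2-fold, and the median log2 ratio was -0.23. Pf4, the platelet chemokine also made by tissue macrophages, was at 126 and 100.9, and Ppbp, a second platelet chemokine, at 1.28 and 0.728. Ccrl1, an atypical receptor for Ccl19, was at 2.94 and 4.15, 1.415-fold higher. Cmtm7 was at 29.9 and 20.7.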

How the data were processed

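Total RNA of 1 wild-type and 1 ILN/ILN mammary gland sample was enriched for polyadenylated RNA and made into strand-marked libraries, each run on 2 lanes, per the labels' protocols. Bowtie 0.12.3, TopHat 1.4.1, bedtools and mm9 are listed in the submitters' processing notes. The sources used here do not give the counting program, its annotation, or how it handled strand and shared reads. Per the file headers, the authors deposited an FPKM-like value per gene, its log2(value + 1), and the signal per kilobase behind it as an original, a derived and a final estimate. In both deposited files the final signal was the larger estimate in all 21113 genes, and the FPKM-like value was that signal divided by 48.6 (wild type) or 45.2 (ILN/ILN). Multiplying the original signal by the deposited length gave whole numbers (tolerance 0.01) for 100% of genes above 0; these are called fragments here. Whether these are reads or read pairs is not given.

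Values, ratios and exact conditional 95% intervals were computed with Python 3.11.15, pandas 2.3.3 and scipy 1.17.1, with a pseudocount of 1, a minimum value of 1 and a 2-fold threshold. No test was made, since each genotype had 1 library. The steps were tested on simulated data. All 58 genes matched the RefSeq table (GRCm38.p6), which was used for names, order and sequence, and no coordinates of the mm9 files are given. Every measured gene could be named, with up to 4 genes per further list by size, those listed at 0 and those at the ends of a range, and any others are described as picked with their values known. The values of some genes are not reported here. Genes and lists were chosen with earlier results of these data known.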

Additional observations from a re-analysis of the deposited data

How the results depend on the processing

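The count of genes at least 2-fold lower, 5, was 5 with a pseudocount of 0.1, with no minimum, from fragments alone and with median of ratios scaling, and 6 with upper quartile scaling. It was 2 with a pseudocount of 5, 3 with a minimum of 5 and 10 at a 1.5-fold threshold. The count at least 2-fold higher, 1, was 0 from fragments alone, 0 with a pseudocount of 5, 0 with a minimum of 5 and 2 at 1.5-fold; a gene set by the derived estimate, Ccl20, made up the original count. The ligand median ranged from -0.43 (minimum of 5) to -0.04 (no minimum), and the receptor median, -0.42, was -0.17 with no minimum. With a minimum of 5 fewer genes were counted (21), with none more (55). All 37 single genes kept the sign of their ratio with pseudocounts of 0.1 and 5 and with median of ratios scaling, as did 36 of 36 from fragments alone. With upper quartile scaling 36 did, and Ccr1 changed sign. No library could be left out and no paired analysis was possible because each genotype had 1 library.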
